A study of Saccharomyces cerevisiae with 5 samples.

Results

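The 9 lysine synthesis genes LYS1, LYS2, LYS4, LYS5, LYS9, LYS12, LYS14, LYS20 and LYS21 of the budding yeast Saccharomyces cerevisiae are described here, out of 6567 features in the deposited table. They were taken by their systematic names, and all 9 were found. All 9 also had a mean over the strains of at least 5 FPKM, the minimum used below, LYS2 by virtue of 3 strains alone. FPKM is fragments per kilobase of feature, scaled to the mapped fragments of the library, so levels of different genes can be compared per length. The strains were then set apart by LYS2 itself, into 2 with LYS2 RNA near 0 (ino80d and arp5d) and 3 that expressed it (WT, arp8d and ies6d). The strains were thus selected on the measured FPKM of LYS2, and the genes were chosen with earlier results of these data known, so the values below are a description and support no rule.

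The 5 strains were WT, which is BY4741 (mating type a, with mutations in his3, leu2, met15 and ura3), and 4 mutants labelled as BY4741 with the genotypes ino80::LEU2, arp8::LEU2, arp5::LEU2 and ies6::LEU2. The deleted genes encode subunits of INO80, a chromatin remodelling complex that moves nucleosomes. Each mutant lacked 1 of them and carried a working LEU2 gene in its place, which WT lacked. Poly(A) RNA came from unsynchronised cultures in logarithmic growth at 30 degrees C in rich medium, which supplies lysine. Each strain had 1 value per gene that stands for 2 biological replicates, so no replicate error could be given and no difference between strains was tested. The depth of the libraries is not known, and each strain is 1 construct.

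Budding yeast makes lysine from 2-oxoglutarate and acetyl-CoA through alpha-aminoadipate. Early steps build and rearrange homocitrate, Lys2 then reduces alpha-aminoadipate to its semialdehyde after Lys5 has charged it with a phosphopantetheine arm, and the saccharopine enzymes Lys9 and Lys1 finish the chain. Lys14 is a zinc cluster activator that works with alpha-aminoadipate semialdehyde, the product of Lys2, as its co-inducer, while lysine inhibits the homocitrate synthases that open the pathway. Gcn4, the general activator of amino acid synthesis genes, acts on several of the same genes.

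Before the members were compared, the labels were checked against the RNA. The deleted genes lay at 0.0257 FPKM (INO80 in ino80d), 0.0986 (ARP8 in arp8d), 0.0687 (ARP5 in arp5d) and 0.211 (IES6 in ies6d), against 25.7 to 238 FPKM in WT, and STE2, which cells of mating type a express, lay between 806 and 1099 FPKM in all 5 strains. The labels give no lys2 mutation for any strain, yet LYS2 RNA was nearly absent in ino80d and arp5d. Whether these strains carry such a mutation was not tested, and it could not be told apart from the missing subunit in any value below. The RNA of MET17, the gene also called MET15, went against the met15 mutation of BY4741 in a pair of mutants, since it was high in ino80d (807 FPKM) and arp8d (564) and under 1 FPKM elsewhere, with 0.482 for WT, 0.2005 for arp5d and 0.571 for ies6d. The 4 mutants therefore held all 4 combinations of high and low MET17 and LYS2, and only WT and ies6d were alike in both. Among the other marker genes, LEU2 lay at 0.0619 FPKM in WT and between 81.3 and 125 in the mutants. HIS3 lay between 178 and 238 FPKM in all 5 strains, so the his3 mutation of BY4741 was not seen in its level. Column sums ran from 2774103 FPKM in arp8d to 3711718 in ies6d, and the median log2 ratio to WT over the 6192 features kept lay between -0.02 and -0.01 in every mutant.

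LYS2 (YBR115C, chromosome II, 469748 to 473926, minus strand, 1 coding exon) encodes the alpha-aminoadipate reductase. It lay at 36.9 FPKM in WT, 32.3 for arp8d and 25.01 for ies6d, against 0.0138 for ino80d and 0.0390 for arp5d. The values in ino80d and arp5d were of the size seen for a deleted gene in its own strain. Among the 3 strains that expressed it, ies6d was the lowest, at 67.7% of WT. LYS2 was a gene of modest level even in WT, with rank 8 of the 9 members in that strain.

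LYS9 (YNR050C, chromosome XIV, 714048 to 715388, minus strand) encodes the saccharopine dehydrogenase that uses the semialdehyde made by Lys2. It lay at 216 FPKM in WT, 125 for arp8d and 70.3 for ies6d, against 36.8 for ino80d and 40.1 for arp5d. Both strains without LYS2 RNA were below all 3 with it, at 17.1% and 18.6% of WT, and the groups did not overlap. The 3 strains with LYS2 RNA were spread widely, with arp8d at 58.1% and ies6d at 32.5% of WT. LYS1 (YIR034C, chromosome IX, 419615 to 420736, minus strand), the saccharopine dehydrogenase that releases lysine, lay at 70.1 FPKM in WT, 48.6 for arp8d and 38.4 for ies6d, against 35.0 for ino80d and 34.1 for arp5d. The groups did not overlap here either, but ies6d lay close above the pair without LYS2 RNA. Between these last enzymes of the pathway the ratio of LYS9 to LYS1 FPKM was 3.08 in WT, 2.58 for arp8d and 1.83 for ies6d, against 1.05 for ino80d and 1.18 for arp5d, lowest in the 2 strains without LYS2 RNA.

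LYS20 (YDL182W, chromosome IV, 133437 to 134723, plus strand) and LYS21 (YDL131W, chromosome IV, 227393 to 228715, plus strand) encode the homocitrate synthase isozymes that start the pathway. LYS20 lay at 264 FPKM in WT, 179.7 for arp8d and 169.8 for ies6d, against 69.6 for ino80d and 116 for arp5d. It was lowest in the 2 strains without LYS2 RNA, and arp8d and ies6d lay within a few percent of WT of each other, at 68.1% and 64.3%. LYS21 lay at 163 FPKM in WT, 152 for arp8d and 168 for ies6d, against 159 for ino80d and 159 for arp5d, and its groups overlapped. The highest LYS21 value was 1.10-fold the lowest, the narrowest range of the 9 members. LYS20 was the higher of the isozyme genes in WT, at 1.62 times LYS21, and the lower in ino80d and arp5d, at 0.437 and 0.732 times. Their coding sequences were 95.3% identical over 1161 aligned bases, with an identical run of 278 bases. How the authors' counting assigned reads shared by both genes is not known, so the level of each is uncertain.

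**Figure D1:**
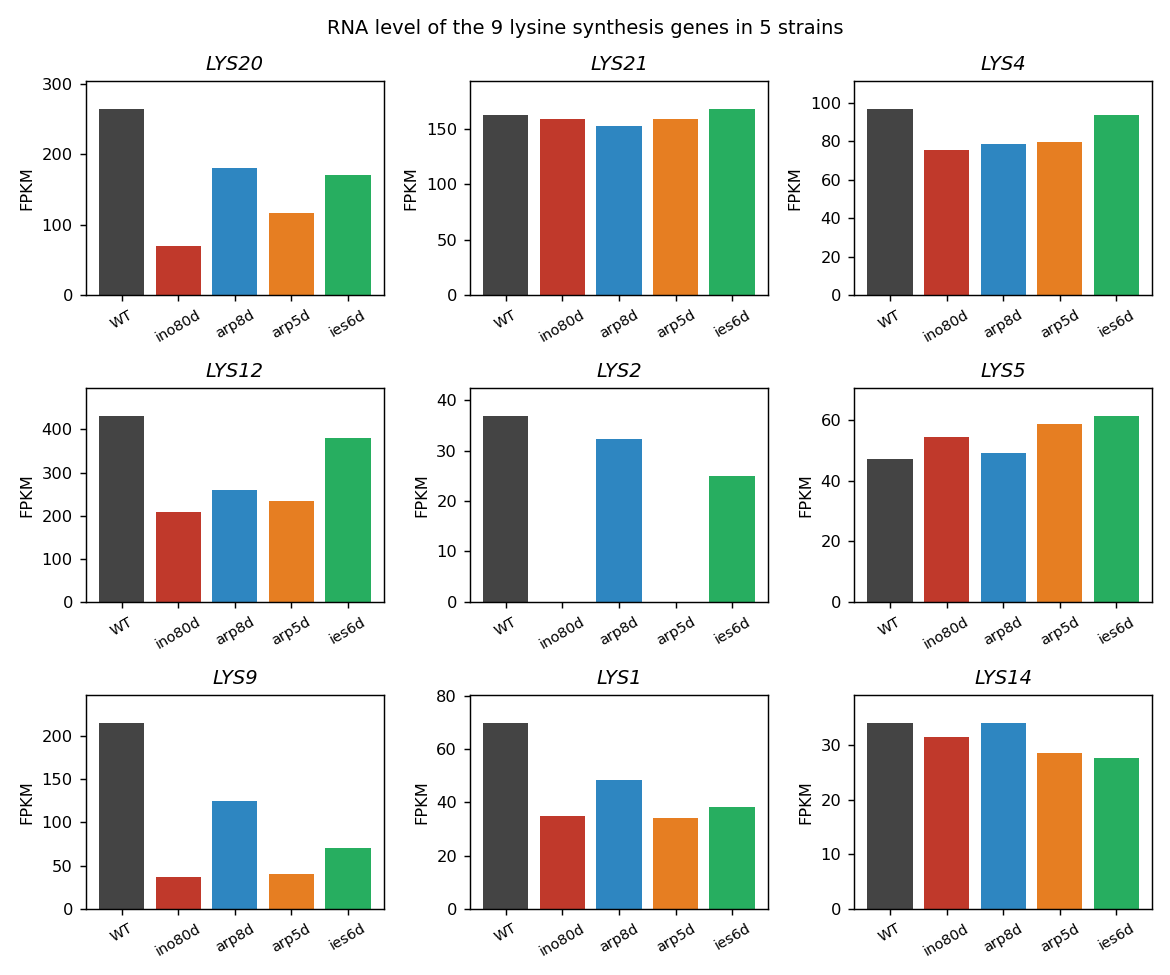
RNA level in FPKM (vertical axis, from 0, a scale for each panel) of the 9 members in the 5 strains, with 1 bar for the 1 deposited value of a strain and no error bars. LYS2 was near 0 in ino80d and arp5d, and LYS9, LYS20, LYS12 and LYS1 were lowest in those 2 strains, while LYS21, LYS14, LYS4 and LYS5 varied by at most 1.31-fold.

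The middle steps differed among themselves. LYS12 (YIL094C, chromosome IX, 186517 to 187632, minus strand), the homoisocitrate dehydrogenase of mitochondria, was the highest member in every strain, at 432 FPKM in WT, 259.8 for arp8d and 379 for ies6d, against 209 for ino80d and 235 for arp5d. Its groups did not overlap, with arp8d close above arp5d. LYS4 (YDR234W, chromosome IV, 931129 to 933210, plus strand), the homoaconitase, lay at 96.8 FPKM in WT, 78.8 for arp8d and 93.8 for ies6d, against 75.6 for ino80d and 79.9 for arp5d. Here arp5d was above arp8d, so the groups overlapped.

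LYS5 (YGL154C, chromosome VII, 215278 to 216096, minus strand), the phosphopantetheinyl transferase that activates Lys2, was lowest in WT, at 47.0 FPKM, and lay at 54.3 for ino80d and 58.7 for arp5d, and 49.2 for arp8d and 61.4 for ies6d. LYS14 (YDR034C, chromosome IV, 509737 to 512109, minus strand), the activator, lay at 34.2 FPKM in WT, 34.2 for arp8d and 27.7 for ies6d, against 31.5 for ino80d and 28.7 for arp5d. Neither the partner of Lys2 nor the activator gene followed the level of LYS2, and ies6d, with LYS2 RNA, had the lowest LYS14 value. No member overlapped another annotated gene.

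The order of levels shifted with these differences. In WT it ran LYS12, LYS20, LYS9, LYS21, LYS4, LYS1, LYS5, LYS2 and LYS14, from 432 down to 34.2 FPKM. LYS9 held rank 3 in WT, 4 in arp8d, 5 in ies6d and 6 in both ino80d and arp5d, where LYS5 lay above it. Without replicates it cannot be said which neighbours in this order differ beyond their error, and LYS20 and LYS21 in ies6d, at 169.8 and 168 FPKM, or LYS5 and LYS1 in arp8d, at 49.2 and 48.6 FPKM, were nearly level. Without LYS2, the FPKM of the other 8 members summed to 1323 in WT, 928 for arp8d and 1009 for ies6d, against 671 for ino80d and 751 for arp5d. The smallest sums were those of the 2 strains without LYS2 RNA.

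Each mutant was next set against WT, which asks how the pathway stood without each subunit. Differences are given as log2 ratios of FPKM + 1, and a gene was called lower or higher at 1.5-fold, by size alone. In ino80d, 5 of 9 members were called lower and none higher, where 13.2% of the 6192 kept features were called lower and 15.1% higher. In arp8d, 2 of 9 were lower and none higher, against 8.33% and 11.0% of features. In arp5d, 5 of 9 were lower and none higher, against 10.9% and 13.3%, and in ies6d 3 of 9 were lower and none higher, against 10.4% and 14.4%. LYS2 is 1 of the 5 in both ino80d and arp5d by the choice of strains. All 4 comparisons share the same WT value, so a member that was unusual in WT would appear in each of them. The missing subunit and the LEU2 gene that replaces it cannot be told apart, since every mutant has both, and in RNA of a whole culture fewer cells with a transcript cannot be told apart from less RNA per cell.

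The members called lower were LYS2, LYS9, LYS20, LYS12 and LYS1 in ino80d and in arp5d, LYS9 and LYS12 in arp8d, and LYS9, LYS1 and LYS20 in ies6d. For LYS9 the log2 ratio to WT was -2.52 for ino80d and -2.40 for arp5d, and -0.78 for arp8d and -1.61 for ies6d. For LYS20 it was -1.91, -1.18, -0.55 and -0.63 in the same order of strains. In arp8d LYS20 lay just outside the 1.5-fold limit, which is 0.58 on the log2 scale, and in ies6d just inside. LYS1 stood at -0.98, -1.02, -0.52 and -0.85, and LYS12 at -1.04, -0.88, -0.73 and -0.19. LYS9, 1 of the 9 members, was thus called lower in every mutant, also where LYS2 was expressed. Of the 6192 kept features, 296 were called lower in all 4.

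The median log2 ratio over the 9 members was -0.98 for ino80d and -0.88 for arp5d, and -0.29 for arp8d and -0.29 for ies6d. Over the 8 members without LYS2 it was -0.67, -0.58, -0.41 and -0.24, beside medians over all kept features of -0.01, -0.02, -0.02 and -0.02. The value for the list thus moved with the inclusion of LYS2, in arp8d and ies6d by less than in the other mutants.

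**Figure D2:**
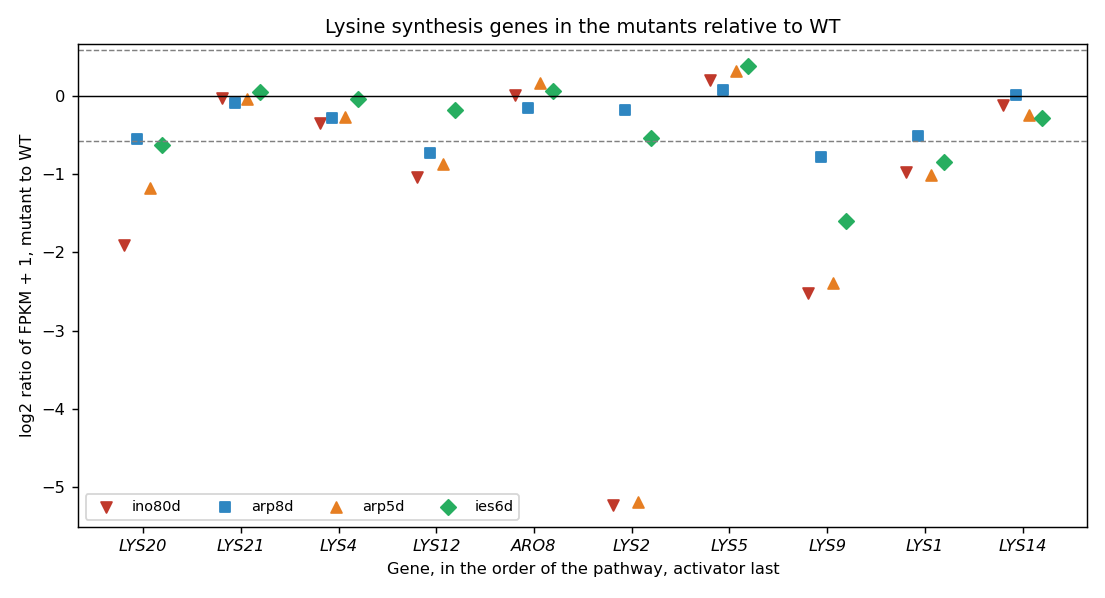
Mutant over WT as the log2 ratio of FPKM + 1 (vertical axis) for the members and for ARO8, in the order of the pathway (horizontal axis), with dashed lines at 1.5-fold and 1 point for each mutant. LYS9 was below the lower line in all 4 mutants, from -0.78 to -2.52, LYS2 in ino80d and arp5d only, and LYS21 and LYS4 stayed between the lines.

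Strains without LYS2 RNA were then compared with strains that had it, as 6 cross pairs of ino80d or arp5d with WT, arp8d or ies6d. Since LYS2 set the split, the values are a description. With 1 construct per mutant, the LYS2 status of a strain cannot be told apart from its missing subunit. In 5 of 9 members (LYS2, LYS9, LYS20, LYS12 and LYS1) both strains without LYS2 RNA lay below all 3 with it, and in none above, where 11.0% of kept features lay below and 11.7% above. In 2 of 9, LYS2 and LYS9, every cross pair was at least 1.5-fold apart. LYS2 is counted in both by the choice of strains, and without it the counts were 4 of 8 and 1 of 8. Of all 6192 kept features only 6, or 0.0969%, were at least 1.5-fold lower in each cross pair, and 12, or 0.194%, at least 1.5-fold higher.

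The smallest cross-pair gap of LYS9 was 0.79 on the log2 scale, between arp5d and ies6d, and the log2 difference was as wide as -2.52, between ino80d and WT. LYS20 lay just outside the limit, with a smallest gap of 0.54 against 0.58 and a difference of -1.91 at its widest. Gaps of LYS12 and LYS1 were small at the near end, 0.15 for LYS12 and 0.13 for LYS1, and the differences came to -1.04 and -1.02 at the far end. For comparison, the SD of the log2 difference between arp5d and ies6d, mutants that do not share LYS2 status, was 0.25 over 5409 annotated ORFs of at least 300 bp with a mean of at least 5 FPKM. In rank of smallest gap among these ORFs, LYS2, LYS9 and LYS20 held ranks 1, 3 and 4, whereas LYS12 and LYS1 were at ranks 136 and 157.

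**Figure D3:**
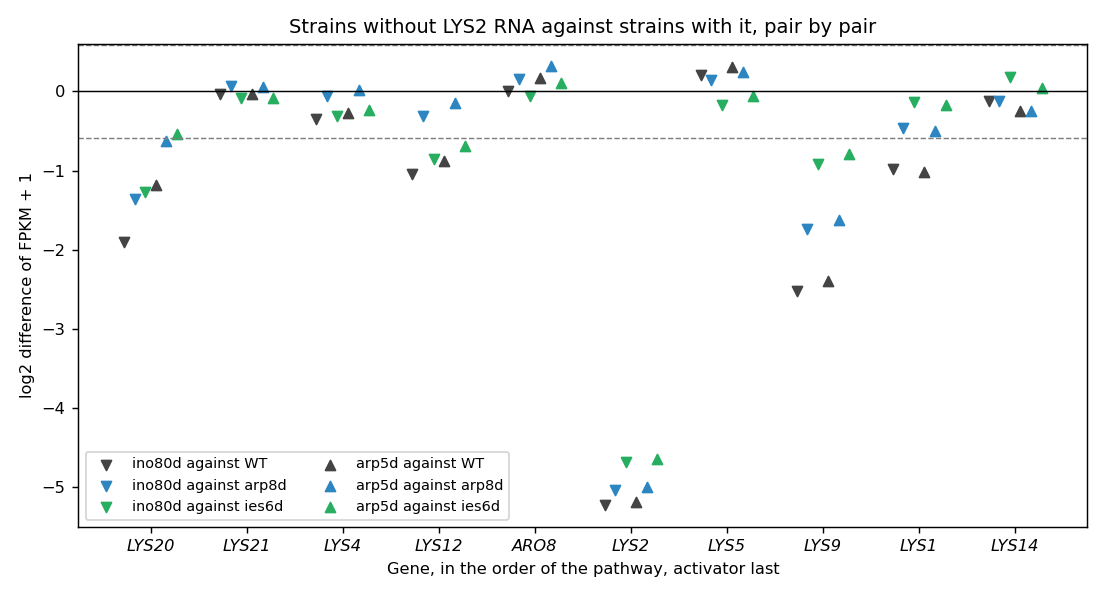
Log2 difference of FPKM + 1 (vertical axis) between ino80d or arp5d (shape of the point) and WT, arp8d or ies6d (colour), for the members and ARO8 in the order of the pathway (horizontal axis), with dashed lines at 1.5-fold. All 6 points of LYS9 lay at or below -0.79, those of LYS20 reached up to -0.54, and those of LYS21 and LYS14 lay around 0.

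The pairs ino80d with arp8d and arp5d with ies6d have no strain in common, and each differs in LYS2 status. In ino80d against arp8d, 3 of 9 members were at least 1.5-fold lower (LYS2, LYS9 and LYS20), with 3.70% of kept features called lower and 3.84% higher. In arp5d against ies6d 3 of 9 were lower (LYS2, LYS9 and LYS12), with 2.08% called lower and 1.57% higher. No member was higher in either pair, and LYS2 and LYS9 were lower in both, as were 0.549% of features. LYS2 is counted in each of these by the choice of strains, and apart from it LYS9 alone was lower in both. The log2 difference of LYS9 was -1.74 in the first pair and -0.79 in the second, that of LYS20 -1.36 and -0.54, and that of LYS12 -0.31 and -0.69. The order of LYS20 and LYS12 was therefore not the same in the 2 pairs.

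Strains of like LYS2 status also differed. Between ino80d and arp5d, both without LYS2 RNA, LYS20 was the member past 1.5-fold, lower in ino80d by a log2 difference of -0.73, where 1.97% of features were called lower and 1.87% higher. Between arp8d and ies6d, both with it, LYS9 was past 1.5-fold, higher in arp8d by 0.83, where 2.79% of features were called higher and 3.97% lower. LYS12 lay just short of the limit in the other direction, at -0.54. The difference in LYS9 within strains that had LYS2 RNA was larger than its smallest gap between strains with and without it. MET17 was high in arp8d and ino80d and near 0 in the other 3 strains, and its part in these values was not tested.

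The sequences before the members' start codons were read for matches to elements of the activators Lys14 and Gcn4. The Lys14 element was searched on both strands as TCCANCGGA, TCCANTGGA, TCCGNCGGA or TCCGNTGGA, then in the relaxed form TCCNNNGGA, which contains the other 4, and the Gcn4 element as TGACTCA. The window ran from 250 bases before the start codon to 50 bases from its first base on, in genome build R64, the same assembly as sacCer3, from RefSeq. LYS9 (chrXIV:715339-715638, minus strand), LYS1 (chrIX:420687-420986, minus strand) and LYS12 (chrIX:187583-187882, minus strand) are shown because they were lower and held a match. LYS20 (chrIV:133187-133486, plus strand) was lower and held none, and LYS2 (chrII:473877-474176, minus strand) held a Gcn4 element only. Only full matches of these forms were counted, so a site with any mismatch was missed. Capitals mark matches of the relaxed Lys14 element and of the Gcn4 element.
LYS9: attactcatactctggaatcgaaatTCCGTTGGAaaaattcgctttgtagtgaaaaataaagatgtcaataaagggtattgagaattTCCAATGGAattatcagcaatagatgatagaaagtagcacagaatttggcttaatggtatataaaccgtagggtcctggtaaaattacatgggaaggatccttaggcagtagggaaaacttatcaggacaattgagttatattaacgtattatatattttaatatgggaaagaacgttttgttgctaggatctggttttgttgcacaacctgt
LYS1: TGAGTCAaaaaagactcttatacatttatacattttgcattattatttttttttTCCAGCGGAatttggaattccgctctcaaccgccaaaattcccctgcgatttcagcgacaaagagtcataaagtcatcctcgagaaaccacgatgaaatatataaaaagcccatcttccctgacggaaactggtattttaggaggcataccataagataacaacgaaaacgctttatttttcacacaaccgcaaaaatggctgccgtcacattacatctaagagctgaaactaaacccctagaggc
LYS12: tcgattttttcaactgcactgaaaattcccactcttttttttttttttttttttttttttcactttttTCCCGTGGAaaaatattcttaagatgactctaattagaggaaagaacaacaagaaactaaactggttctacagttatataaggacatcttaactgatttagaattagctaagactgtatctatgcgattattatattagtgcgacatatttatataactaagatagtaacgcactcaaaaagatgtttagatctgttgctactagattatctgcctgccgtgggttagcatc
LYS20: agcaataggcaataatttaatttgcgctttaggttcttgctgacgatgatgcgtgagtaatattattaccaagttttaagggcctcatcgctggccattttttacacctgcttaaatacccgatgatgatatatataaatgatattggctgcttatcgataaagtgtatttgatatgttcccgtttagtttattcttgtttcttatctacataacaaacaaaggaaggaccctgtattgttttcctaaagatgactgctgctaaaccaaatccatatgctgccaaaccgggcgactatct
LYS2: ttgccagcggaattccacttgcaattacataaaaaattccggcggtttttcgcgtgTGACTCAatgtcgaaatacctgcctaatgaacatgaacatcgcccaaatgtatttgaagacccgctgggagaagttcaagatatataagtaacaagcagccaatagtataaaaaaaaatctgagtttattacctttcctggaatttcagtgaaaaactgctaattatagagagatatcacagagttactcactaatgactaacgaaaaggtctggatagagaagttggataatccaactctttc

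LYS9 held 2 matches of the spelled Lys14 element, TCCGTTGGA at 225 and TCCAATGGA at 163 bases before the start codon, and no other member held more than 1. LYS1 held TCCAGCGGA at 196 bases, with a Gcn4 element at 250. LYS12 held the relaxed form alone, TCCCGTGGA at 182 bases. LYS14 held the relaxed form at 216 bases before the start codon and again at position 33 of its coding sequence, with a Gcn4 element at 250 bases. LYS2 had its Gcn4 element at 194 bases. LYS4, LYS5, LYS20 and LYS21 held none of the motifs in this window.

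Of the 9 members, 2 held the spelled Lys14 element, 4 the relaxed form and 3 the Gcn4 element, while 0.997%, 3.39% and 2.72% of 6020 promoters of the same length did. With 500 bases before the start codon in place of that window, LYS21 held a spelled element too, at 330 bases, in chrIV:227043-227091 on the plus strand, which made 3 members against 1.56% of 6019 promoters. This sequence is shown because LYS21 held the element and kept almost the same level in all 5 strains.
LYS21: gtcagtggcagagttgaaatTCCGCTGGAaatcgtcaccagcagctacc

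Of 60 kept genes with the spelled element in the shorter window, 8 lay lower without overlap in the strains without LYS2 RNA and 7 higher, near the 11.0% and 11.7% of all kept features, so these counts say nothing of the element. LYS9 had the widest smallest gap among the 60, at 0.79, and FUR1, which encodes uracil phosphoribosyltransferase, held rank 3, at 0.30. A match shows letters only and is not evidence of binding.

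**Figure D4:**
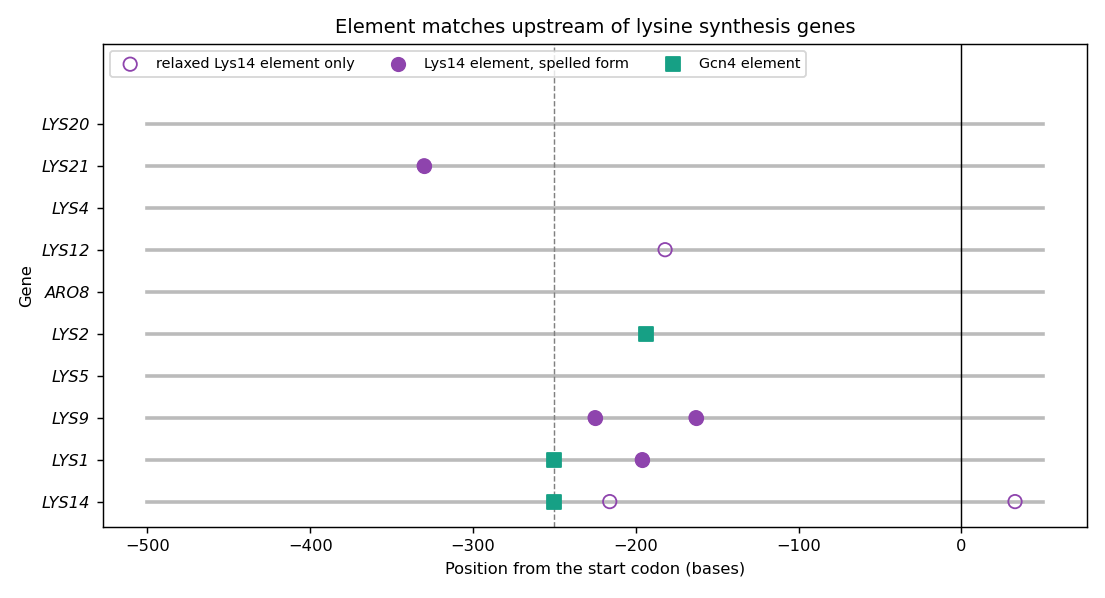
Positions of element matches (horizontal axis, bases from the start codon, which is at 0) before 10 genes of lysine synthesis (vertical axis, in the order of the pathway, LYS14 last). Filled circles are spelled Lys14 elements, open circles the relaxed form alone, squares Gcn4 elements, and the dashed line marks 250 bases. LYS9 held 2 spelled elements, LYS21 had 1 beyond the dashed line, and LYS20, LYS4, LYS5 and ARO8 had none.

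Other enzymes and carriers of the pathway were read from a fixed list of 3 genes. ARO8, an aminotransferase that can make alpha-aminoadipate, had 353 FPKM in WT, 316 for arp8d and 367 for ies6d, against 353 for ino80d and 396 for arp5d, with overlapping groups. ODC1 and ODC2, mitochondrial carriers of oxodicarboxylates, were highest in WT, at 35.4 and 112 FPKM, and ranged from 23.5 to 28.1 and from 69.7 to 81.7 FPKM in the mutants. Both carrier genes were lower without overlap in the strains without LYS2 RNA, with smallest gaps of 0.14 for ODC1 and 0.11 for ODC2, a pattern that 11.0% of kept features had. ODC2 was called lower than WT in ino80d and arp5d, while ODC1 was just short of the limit there, with log2 ratios of -0.57 in both, and 13.2% and 10.9% of kept features were called lower. None of the 3 genes was called in arp8d or ies6d.

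Lysine transport and the regulators of the pathway showed little of this. Of 11 genes of lysine and basic amino acid transport at the plasma membrane and vacuole, 10 were kept. LYP1, the lysine permease, lay between 231 and 247 FPKM in the 5 strains, and CAN1, the arginine permease, between 80.0 and 98.1. RTC2, a vacuolar transporter gene, was higher than WT in all 4 mutants, at 3.75 FPKM in WT, 12.5 for arp8d and 10.1 for ies6d, against 9.57 for ino80d and 6.96 for arp5d. Of the 6192 kept features, 494 were called higher in all 4 mutants. GAP1, the general amino acid permease, was lower than WT in arp5d, at 7.30 against 13.5 FPKM, and ALP1, a basic amino acid permease gene, higher in ies6d, at 8.05 against 4.49. Among the vacuolar genes VBA1, VBA2, YPQ1, YPQ2 and AVT4 none passed 1.5-fold in any mutant, and VBA3, which was not kept, was listed at 0 in WT, ino80d and arp5d.

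GCN4 RNA lay between 1736 FPKM in arp8d and 1994 in ies6d, and MKS1, a negative regulator of the pathway, between 46.7 and 52.6. With RTG1, RTG2 and RTG3, which control 2-oxoglutarate supply, none of these 5 regulator genes was 1.5-fold from WT in any mutant. KRS1, the cytoplasmic lysyl-tRNA synthetase, had 1052 FPKM in WT and from 745 to 835 in mutants, and MSK1, the mitochondrial one, between 36.9 and 41.4. Of 12 genes of 2-oxoglutarate supply, the number called higher than WT was 2 for ino80d, 3 for arp5d, 4 for ies6d and 5 for arp8d, where 15.1%, 13.3%, 14.4% and 11.0% of kept features were. IDP1, the mitochondrial isocitrate dehydrogenase that uses NADP, had log2 ratios to WT of -0.62 for ino80d, -0.55 for arp5d and -0.58 for ies6d, on either side of the 1.5-fold limit, and -0.03 for arp8d. In this list CIT1 alone, the mitochondrial citrate synthase, was higher in all 4 mutants, with 65.1 FPKM in WT and from 165 to 189 in mutants. The same call held for 494 of the 6192 kept features. None of the 12 separated the strains by LYS2 status, where 11.0% of kept features lay lower and 11.7% higher without overlap.

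As a yardstick for other amino acid pathways, 27 genes of arginine, histidine and aromatic synthesis were read in the same way. Of these, 7 were called lower than WT in each of ino80d, arp5d and ies6d and 6 in arp8d, where 13.2%, 10.9%, 10.4% and 8.33% of kept features were, and none higher. Their median log2 ratio to WT was -0.20 for ino80d and -0.20 for arp5d, and -0.25 for arp8d and -0.27 for ies6d. In 3 of the 27 the strains without LYS2 RNA lay lower without overlap and in 2 higher, where 11.0% and 11.7% of kept features did. In none of the 27 was every cross pair 1.5-fold apart. HIS4, which encodes an enzyme of several steps of histidine synthesis, had 213 FPKM in WT and from 72.5 to 83.0 in mutants, HIS5 213 and 96.3 to 111, HIS1 870.1 and 413 to 564, and HIS7 152 and 81.0 to 95.4. These 4 of the 27 genes were called lower in every mutant, whether or not LYS2 was expressed. Of the 6192 kept features, 296 were called lower in all 4 mutants.

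The neighbourhood of LYS2 was examined for the extent of the lost signal. RAD16, a DNA repair gene 127 bases beyond the end of LYS2, lay at 14.5 FPKM in WT, 21.6 for arp8d and 14.7 for ies6d, against 18.6 for ino80d and 13.9 for arp5d, and CYC8, a corepressor gene next to it, between 35.7 and 42.8. TKL2, the minor transketolase gene, lies 465 bases before the start of LYS2 and on the same strand, so that its end faces that start. It lay at 8.07 FPKM in WT, 8.64 for arp8d and 9.41 for ies6d, against 19.0 for ino80d and 22.9 for arp5d. The groups did not overlap, and both strains without LYS2 RNA were higher. The smallest cross-pair gap of TKL2, 0.94, was the widest of all 5409 long ORFs in this direction. TEF2, a translation elongation factor gene on the far side of TKL2, lay between 1394 and 2034 FPKM. Of 24 measured genes, 12 on either side of LYS2, TKL2 alone was 1.5-fold apart in all cross pairs. Of the 24, 2 were higher and 3 lower without overlap, near the 11.7% and 11.0% of all kept features.

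**Figure D5:**
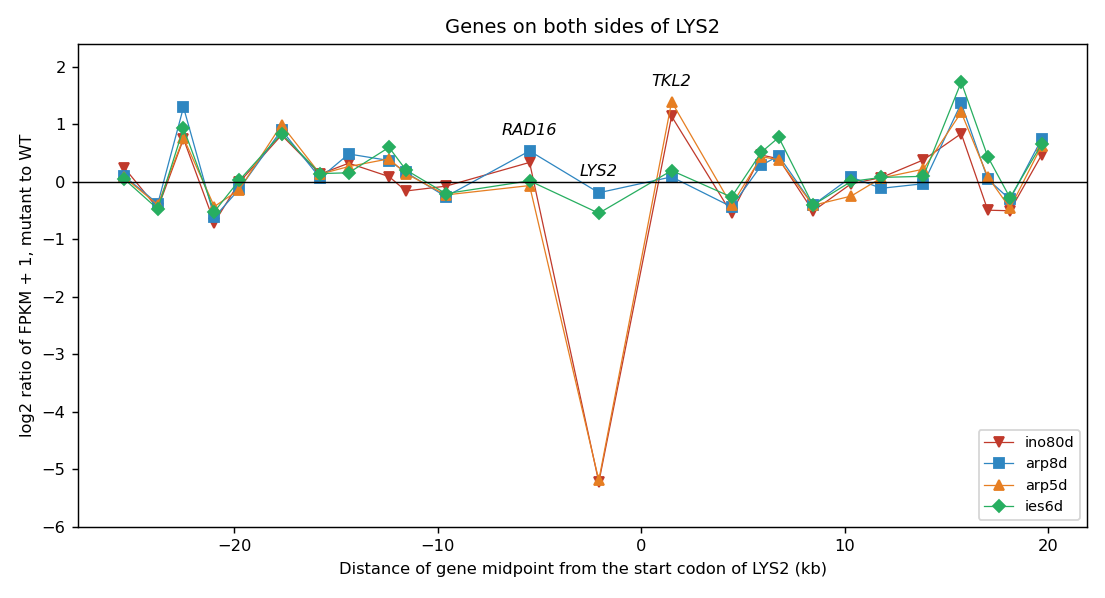
Mutant over WT as the log2 ratio of FPKM + 1 (vertical axis) for LYS2 and 24 genes around it by distance of the midpoint from the LYS2 start codon (horizontal axis, in kb), with lines that join neighbouring genes. LYS2 lay at -5.23 in ino80d and -5.19 in arp5d, and TKL2 was high in the same 2 strains, at 19.0 and 22.9 FPKM against 8.07 in WT.

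Genes outside the pathway were ranked by the same gap. The 5 long ORFs lowest in strains without LYS2 RNA were LYS2, IMD2, LYS9, LYS20 and TYE7, and the 10 lowest also held HXT1, COX15, TPI1 and PNS1. IMD2, an IMP dehydrogenase gene with close relatives in the genome, lay at 148 FPKM in WT, 39.9 for arp8d and 19.02 for ies6d, against 7.77 for ino80d and 2.94 for arp5d. TYE7, a regulator of glycolysis genes, had 276, 221, 175, 94.1 and 120.04 FPKM in WT, arp8d, ies6d, ino80d and arp5d, and TPI1, the triose phosphate isomerase, 11952, 10184, 9802, 7057 and 7110.03. HXT1, a low-affinity glucose transporter, lay at 257 FPKM in WT, 569 for arp8d and 229.9 for ies6d, against 133 for ino80d and 161 for arp5d. In the opposite direction TKL2 was followed by YIL054W, ZRT1, YPR195C and SEO1, of which ZRT1, the high-affinity zinc transporter, lay at 143 FPKM in WT, 107 for arp8d and 209.6 for ies6d, against 337 for ino80d and 317 for arp5d.

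Genes with a strain pattern most like that of LYS9 were found by the root-mean-square distance of log2(FPKM + 1) over the 5 strains, each gene centred on its own mean. The nearest were HO, the mating-type switching endonuclease, at 0.24, RPL7B, a ribosomal protein gene with a close copy, at 0.35, FAA3, an acyl-CoA synthetase gene, at 0.35, then YCR087C-A, YGR035C, PDR5, LEU9 and SEC53 at 0.35 to 0.37. HO lay at 76.7 FPKM in WT, 53.6 for arp8d and 23.4 for ies6d, against 14.9 for ino80d and 21.7 for arp5d. The nearest member was LYS20, at rank 23 and a distance of 0.45, and LYS1 followed at rank 87. Around LYS1 itself the nearest genes were PFK1, KTR7, YHR078W, WTM1 and SPO22, at 0.04 to 0.06. PFK1, a phosphofructokinase gene, lay at 499 FPKM in WT, 332 for arp8d and 258 for ies6d, against 236 for ino80d and 231 for arp5d. The pattern of LYS1 was thus also that of genes outside amino acid synthesis.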

How the data were processed

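Poly(A) RNA was enriched and libraries were made with the Illumina TruSeq RNA v2 kit and read on a HiSeq2000, per the labels' protocols. The deposited values are FPKM, computed by the authors as 1 value per strain for 2 biological replicates. Per the submitters' processing notes, TopHat2 and Cuffdiff were used with sacCer3; versions, annotation and library size setting are not given in the sources used here. Depth is unknown, so no counting interval or detection limit was computed.

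All 5 columns were used. IDs were matched to R64 locus tags of RefSeq (5888 of 6567). Differences are log2 ratios of FPKM + 1, which understate changes of low genes, over 6192 features with a mean of at least 5 FPKM, without rescaling; calls are at 1.5-fold. No test was made, since a mutant and WT have 1 value each and the split by LYS2 RNA was chosen on measured values. Coding sequences were compared with blastn 2.17.0, using Python 3.11.15 and pandas 2.3.3 for the rest. As alternatives, results were recomputed with 0.1 or 5 FPKM as pseudocount, without a filter, with a minimum of 20 FPKM, after centring, at 2-fold, without WT and without LYS2; leaving out each mutant was added after the data were seen. The members, lists and the split of strains were chosen with earlier results of these data known. Genes were named by rule: all members, deleted and marker genes, neighbours of LYS2, listed genes of the pathway and those of other lists 1.5-fold from WT in all mutants, and the ORFs ranked highest by cross-pair gap or nearest to LYS9 and LYS1 in pattern; other genes named were chosen after their values were seen. 1 gene is not reported here.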

Additional observations from a re-analysis of the deposited data

How the results depend on the processing

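No paired analysis was possible because the deposited table has 1 value per strain and no replicate columns. With no replicate spread, a value was taken as moved when it shifted by more than 0.25 on the log2 scale, the SD between arp5d and ies6d. A count was taken as moved when it changed by more than 1.5-fold or fell to 0. Pseudocounts of 0.1 and 5 FPKM, no filter and centring on the median log2 ratio moved none of the counts of members or medians, and no called value changed sign under any alternative; the log2 ratio of LYS2 itself went to -8.35 in ino80d and -8.06 in arp5d with 0.1 FPKM, and to -3.06 in both with 5 FPKM. A minimum of 20 FPKM removes LYS2, whose mean is lower. It gave medians of -0.67 in ino80d and -0.58 in arp5d, as did leaving LYS2 out by name. With that minimum 5 features were 1.5-fold lower in all cross pairs, and 1 of them was a member (LYS9). At 2-fold, members lower than WT numbered 4 in ino80d, 4 in arp5d, 0 in arp8d and 1 in ies6d. LYS2 is counted in ino80d and arp5d. The share of kept features past 2-fold from WT was not computed, so these counts have no background. At that limit 3 kept features were lower in all cross pairs, and the 1 member among them was LYS2, which set the split. Leaving out any 1 strain, WT included, gave 5 to 7 members lower without overlap and 2 or 3 lower in all cross pairs. LYS2 was always among them by the choice of strains. The share of kept features lower without overlap, 11.0% with all strains, rose with fewer strains. It was 16.9% without WT, 19.1% without ino80d, 18.9% without arp8d, 25.2% without arp5d and 24.0% without ies6d. Gaps of single members did depend on 1 strain: without ies6d the smallest gap of LYS9 was 1.62 and that of LYS1 0.46, without arp8d that of LYS12 was 0.69, and without arp5d that of LYS20 was 1.28. Features lower in all cross pairs numbered 18 without WT, 15 without ino80d, 16 without arp8d, 43 without arp5d and 61 without ies6d, against 6 with all strains.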
